A study of Homo sapiens with 18 samples.

Results

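The nuclear genes for mitochondrial ribosomal proteins were followed in U87MG cells, an established human glioblastoma line, with and without Erastin, a compound that blocks the cystine importer system Xc- and brings on ferroptosis, the iron-dependent form of cell death. Members were the rows of the count table whose Ensembl identifier maps to a protein-coding symbol made of MRPL or MRPS and a number. The rule found 78 genes among 58302, of which 49 carry the MRPL name of the large subunit and 29 the MRPS name of the small subunit. RNA-seq was performed on total RNA of 4 libraries, 2 of control U87MG cells (called WT in the labels, with no vehicle named) and 2 of U87MG cells kept in 10 μM Erastin for 72 h. Both groups are the same single cell line in the same medium with fetal bovine serum and antibiotics, and they differ by the treatment alone as far as the labels say. The labels do not say that the 2 libraries of a group came from separate cultures, so the p-values measure the spread between these libraries, which may be technical. The series also holds H3K27ac and H3K4me1 ChIP-seq and H3K27ac HiChIP samples, which were not analysed here.

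The mitochondrial ribosome translates the few mRNAs of the mitochondrial genome, all of which code for subunits of the respiratory chain and ATP synthase. Its RNA comes from the mitochondrial DNA, whereas all of its proteins are made from nuclear genes, translated in the cytosol and imported. Part of these proteins descend from those of the bacterial ribosome, and the rest were added during the evolution of mitochondria, so the human particle is rich in protein and poor in RNA. The large subunit joins amino acids and holds the exit tunnel, and the small subunit reads the mRNA.

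Mitoribosomal protein mRNAs changed little in size, and more of them rose than fell. Of the 78 members, 75 passed the filter on low counts. In edgeR's quasi-likelihood test over 16751 genes, 24 members were higher and 7 were lower in Erastin-treated cells at an adjusted p under 0.05 (Benjamini-Hochberg), and 44 were not called. These are 32% and 9.33% of the tested members. Across all tested genes, 23.2% were called higher and 23.7% lower, and across tested protein-coding genes 26.5% and 27.6%. The members called higher were thus a somewhat larger share than the background, and those called lower a smaller share. When a log2 fold change of 1 or more in either direction was asked for as well, 2 members were higher and none of the 75 lower, where 6.24% of all tested genes were higher and 9.34% lower by the same rule. The Erastin values were all above the control values in 38 of the 75 members and all below them in 15, where the groups did not overlap upward in 36.7% and downward in 36.9% of all tested genes. The edgeR test gave 35 members an unadjusted p under 0.05, and DESeq2 called 20 members higher and 6 lower. Shares over all genes were not taken for the unadjusted p, for DESeq2 or for fits with 1 library left out. Whether members called higher exceed the background there is therefore not known. Without the second Erastin library 18 members were called higher and 4 lower, and without the first 18 and 6.

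The level of a gene in a library is given as CPM, its counts scaled to 1000000 counts of the TMM-adjusted library. The summed level of the 78 members was 2833 and 2790 CPM in the control libraries and 3114 and 3078 CPM in the Erastin libraries. The groups did not overlap, and the mean was 10.1% higher, from 2811 ± 30.5 to 3096 ± 24.9 CPM (SD, n = 2). Scaled to library totals instead of TMM, the log2 ratio of the means was 0.19 in place of 0.14. The members took between 0.275% and 0.317% of all counts in a library. The median log2 fold change was 0.13 over the 75 tested members and -0.00259 over all tested genes. The fold changes spanned -0.60 to 1.26, and 66 of the 75 were under 0.5 in size. In bulk RNA, fewer cells of a kind and less RNA per cell cannot be told apart, and this holds for every level given here.

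**Figure D1:**
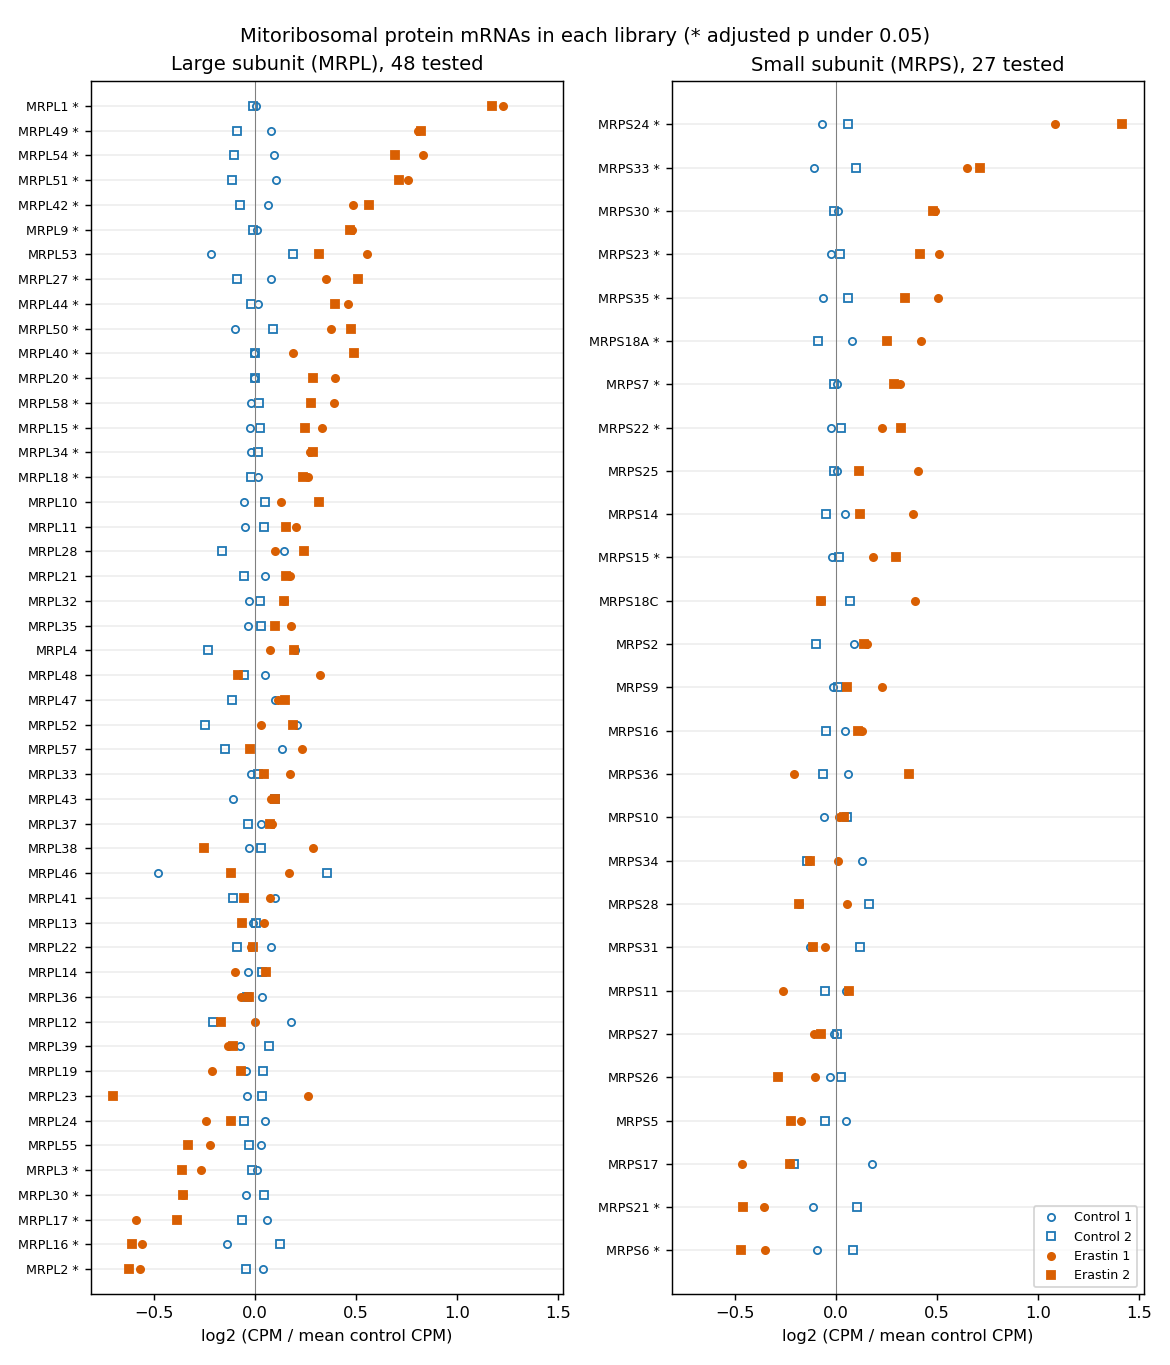
Level of each of the 75 tested members in each library, as the log2 ratio of its CPM to the mean of the control libraries, with 48 MRPL genes on the left and 27 MRPS genes on the right, sorted by log2 fold change. Open blue symbols are control and filled orange symbols Erastin libraries, and a star marks an adjusted p under 0.05. MRPL1 and MRPS24 stand over 1 unit to the right of the controls in both Erastin libraries, and most other members lie within 0.5 of the controls.

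The rise with the highest fold was that of MRPS24, the counterpart of bacterial protein S3 at the mRNA entry of the small subunit (GRCh38 chr7:43866558-43869893). It stood at 2.06 and 2.25 CPM in the control libraries and 4.58 and 5.76 CPM in the Erastin libraries. The groups did not overlap, with a log2 fold change of 1.26 (SE 0.26, adjusted p 0.00178), but the gene was read from only 63 to 181 counts a library, and 23.2% of its exon bases lie under the readthrough gene URGCP-MRPS24. MRPL1, the counterpart of bacterial L1, the protein of the mobile arm through which spent tRNA leaves the large subunit, was measured more tightly (chr4:77862520-77952790). Its level was 5.79 and 5.73 CPM in control cells and 13.5 and 13.0 CPM in Erastin-treated cells, a log2 fold change of 1.20 (SE 0.16, adjusted p 6.63e-05). Nearly all of MRPL1, 98.7% of its exon words of 31 bases, occurs once in the genome and under no other gene.

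The next rises were in proteins listed as specific to the mitochondrial ribosome. MRPL49 (chr11:65122183-65127371) stood at 58.1 and 51.7 CPM in control and 96.2 and 97.0 CPM in Erastin libraries, a log2 fold change of 0.82 (SE 0.08, adjusted p 5.56e-06). MRPL54 (chr19:3762664-3768575), a protein at the base of the stalk that receives translation factors, went from 14.3 and 12.4 to 23.8 and 21.6 CPM (log2 fold change 0.77, SE 0.13, adjusted p 0.000427). For both, each Erastin library lay well above each control library. MRPL51 (chr12:6491886-6493841) had 64.2 and 55.3 CPM in control and 101 and 98.1 CPM in Erastin libraries (log2 fold change 0.74, SE 0.08, adjusted p 2.03e-05). MRPS33 (chr7:141002610-141015228) had 40.0 and 46.2 CPM in control and 67.5 and 70.7 CPM in Erastin libraries (log2 fold change 0.68, SE 0.09, adjusted p 6.53e-05). The groups of these genes did not overlap either, though 31.3% of the exon bases of MRPL51 lie under NCAPD2, a condensin gene on the neighbouring stretch of chromosome 12, and reads there were not counted. MRPL42 followed at 42.7 and 38.8 CPM against 57.1 and 60.2 CPM (log2 fold change 0.53, adjusted p 0.000394), and MRPS30 at 56.3 and 55.6 CPM against 78.6 and 78.1 CPM (log2 fold change 0.49, adjusted p 0.000193). MRPS30, despite its name, sits in the large subunit of the solved human structure. The other 16 members called higher rose by less, with log2 fold changes between 0.24 for MRPS15 and 0.48 for MRPL9. Among them were MRPL58, the peptidyl-tRNA hydrolase that frees stalled chains and is built into the large subunit, at 0.34 (SE 0.10), and MRPL44, a protein with an RNase III fold, at 0.43 (SE 0.10).

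The 7 falls were all smaller than 1 on the log2 scale. MRPL2, which lies next to the catalytic centre (chr6:43054029-43059806), stood at 21.6 and 20.4 CPM in control and 14.2 and 13.7 CPM in Erastin libraries, a log2 fold change of -0.60 (SE 0.12, adjusted p 0.00164). MRPL16 (chr11:59806135-59810872), also close to the catalytic centre, had 33.8 and 40.5 CPM in control and 25.2 and 24.3 CPM in Erastin libraries (log2 fold change -0.58, SE 0.11, adjusted p 0.00121). For both genes the Erastin values lay close together and below both control values. MRPL17 (chr11:6680782-6683401) had 78.6 and 72.2 CPM in control and 50.1 and 57.8 CPM in Erastin libraries (log2 fold change -0.48, SE 0.09, adjusted p 0.000862). In the small subunit, MRPS6 (chr21:34073224-34143034) had 81.1 and 91.8 CPM in control and 67.9 and 62.4 CPM in Erastin libraries (log2 fold change -0.41, SE 0.08, adjusted p 0.00182). MRPS21 was at 13.5 and 15.7 against 11.4 and 10.6 CPM (log2 fold change -0.41, adjusted p 0.0363). None of these groups overlapped, but MRPS21 was no longer called by DESeq2 (adjusted p 0.11), with library totals (adjusted p 0.0662) or without the second control library (0.177), the first Erastin library (0.0781) or the second (0.167). MRPL3, among the most abundant members, was at 136 and 134 against 112 and 105 CPM (log2 fold change -0.31, adjusted p 0.00291), and MRPL30 at 27.1 and 28.9 against 21.9 and 21.9 CPM (log2 fold change -0.35, adjusted p 0.0172). The adjusted p of MRPL3 was 0.0561 without the second Erastin library, and that of MRPL30 lay between 0.0596 and 0.0794 without the second control or either Erastin library.

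The promoters of 4 members that rose and 2 that fell are shown because these genes share a complex but moved in opposite directions. They do not strictly follow the rank of the fold changes. MRPL54 (log2 fold change 0.77) is not shown though it rose more than MRPL51 (0.74), and MRPL2, the largest fall, has no window. Each sequence is the RefSeq window (GRCh38.p14) of 250 bases before and 50 after the start of the gene. It is written 5′ to 3′ on the strand of the gene. Capitals mark a match, on either strand, to the letters of a factor that is known for nuclear genes of mitochondrial proteins: the NRF1 core GCGCANGCG, the ETS and GABPA core CCGGAAG or the YY1 core AANATGGCG, and, for comparison, the E-box CACGTG that MYC can bind.
MRPL1, chr4:77862580-77862879, plus strand: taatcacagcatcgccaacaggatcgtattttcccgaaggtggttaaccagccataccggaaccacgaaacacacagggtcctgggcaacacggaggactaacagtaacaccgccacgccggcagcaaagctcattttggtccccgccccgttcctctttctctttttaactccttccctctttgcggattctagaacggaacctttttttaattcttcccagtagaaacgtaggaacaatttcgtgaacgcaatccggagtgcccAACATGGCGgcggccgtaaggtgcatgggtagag
MRPS24, chr7:43869468-43869767, minus strand: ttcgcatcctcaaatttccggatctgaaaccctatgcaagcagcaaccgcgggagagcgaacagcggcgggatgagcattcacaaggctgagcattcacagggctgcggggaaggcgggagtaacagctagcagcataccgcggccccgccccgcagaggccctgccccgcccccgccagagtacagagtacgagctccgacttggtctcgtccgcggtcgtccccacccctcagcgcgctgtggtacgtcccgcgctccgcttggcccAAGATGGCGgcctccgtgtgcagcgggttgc
MRPL49, chr11:65121933-65122232, plus strand: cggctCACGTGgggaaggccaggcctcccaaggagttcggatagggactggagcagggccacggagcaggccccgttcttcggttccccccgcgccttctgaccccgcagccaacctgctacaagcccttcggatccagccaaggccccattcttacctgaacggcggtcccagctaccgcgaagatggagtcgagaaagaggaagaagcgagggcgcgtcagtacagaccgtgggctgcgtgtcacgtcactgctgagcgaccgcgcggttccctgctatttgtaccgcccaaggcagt
MRPL51, chr12:6493213-6493512, minus strand: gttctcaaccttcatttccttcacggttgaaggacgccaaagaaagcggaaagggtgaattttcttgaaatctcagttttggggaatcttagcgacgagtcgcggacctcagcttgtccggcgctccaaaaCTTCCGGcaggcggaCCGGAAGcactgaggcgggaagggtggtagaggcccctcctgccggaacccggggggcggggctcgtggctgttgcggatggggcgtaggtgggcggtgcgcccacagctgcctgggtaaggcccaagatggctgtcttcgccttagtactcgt
MRPL16, chr11:59810729-59811028, minus strand: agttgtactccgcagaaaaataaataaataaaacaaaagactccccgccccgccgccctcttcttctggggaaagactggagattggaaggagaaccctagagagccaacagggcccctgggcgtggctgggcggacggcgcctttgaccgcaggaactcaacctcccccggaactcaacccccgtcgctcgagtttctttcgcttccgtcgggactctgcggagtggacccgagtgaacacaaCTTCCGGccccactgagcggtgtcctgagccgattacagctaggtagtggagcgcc
MRPL17, chr11:6683291-6683590, minus strand: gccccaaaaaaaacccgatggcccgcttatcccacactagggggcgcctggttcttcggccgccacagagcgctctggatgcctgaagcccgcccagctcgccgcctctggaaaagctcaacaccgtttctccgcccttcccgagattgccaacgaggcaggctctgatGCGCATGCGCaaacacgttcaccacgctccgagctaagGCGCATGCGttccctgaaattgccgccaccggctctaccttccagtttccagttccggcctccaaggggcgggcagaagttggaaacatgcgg
MRPL1 and MRPS24, the genes with the highest folds, each hold a YY1 match just downstream of the start. MRPL51 holds 2 ETS matches, 1 on each strand, and MRPL16, which fell, holds 1. MRPL17 holds 3 NRF1 matches, of which 2 overlap because the letters read nearly the same on both strands, and MRPL49 holds an E-box only.

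A promoter window was listed for 69 of the 78 members, all but MRPL2, MRPL10, MRPL13, MRPL15, MRPL21, MRPL23, MRPL35, MRPS28 and MRPS36. The ETS letters were found in 29 of the 69 (42.0%), against 10.7% of all 27305 windows and 14.2% of the 15843 windows of protein-coding genes. The YY1 letters were found in 18 (26.1%), against 3.37% and 4.81%, and the NRF1 letters in 13 (18.8%), against 8.05% and 11.0%. The E-box was found in 6 members (8.70%), against 7.43% and 8.88%. Members thus held the first 3 motifs at a higher share than other genes and the E-box at a like share. At least 1 motif was found in 49 members and 2 or more kinds in 13, and matches to different motifs overlapped in none of the 69 windows. By call, the ETS letters stood in 10 of the 23 members called higher that have a window, 4 of the 6 called lower and 15 of the 40 others. The YY1 letters stood in 7 of 23, 0 of 6 and 11 of 40, and the NRF1 letters in 3 of 23, 2 of 6 and 8 of 40. With 6 windows among the members called lower, these shares are counts only, and a match to letters is not a bound site.

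**Figure D2:**
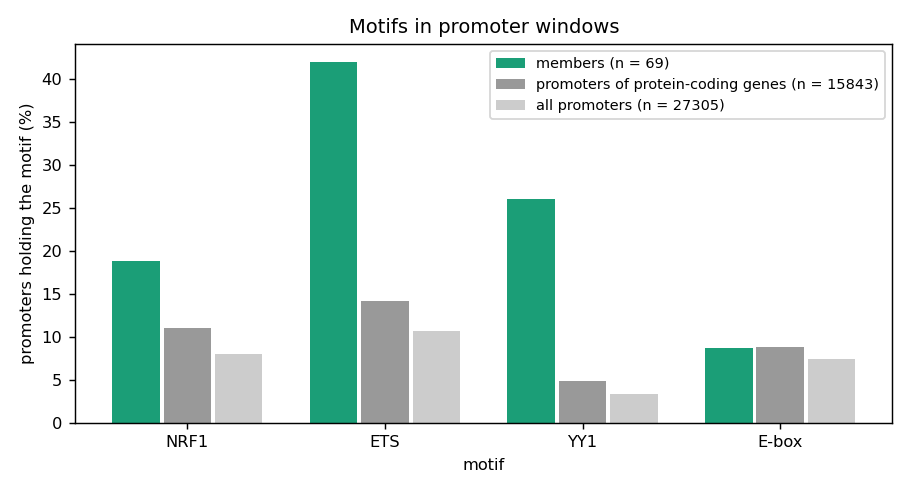
Share of promoter windows (%) that hold each of 4 motifs on either strand, for the 69 members with a window, 15843 protein-coding genes and 27305 genes of all kinds. The members' bars stand at 18.8% for NRF1, 42.0% for ETS and 26.1% for YY1, above both grey bars, and level with them for the E-box.

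Placed by name, the subunits gave similar shares of calls and similar medians. Among MRPL genes, 15 of 48 were called higher and 5 lower, with a median log2 fold change of 0.13. Among MRPS genes, 9 of 27 were called higher and 2 lower, with a median of 0.15. These are 31.25% and 10.4% of MRPL genes and 33.3% and 7.41% of MRPS genes. Over all tested genes the shares were 23.2% and 23.7%, and over tested protein-coding genes 26.5% and 27.6%. The summed level of MRPL genes was 1799 and 1747 CPM in control and 1951 and 1939 CPM in Erastin libraries, and that of MRPS genes 1034 and 1042 against 1163 and 1140 CPM. Neither group of libraries overlapped the other in either subunit, and the means were 9.68% and 10.9% higher. The large-to-small ratio of summed CPM was 1.74 and 1.68 in control and 1.68 and 1.70 in Erastin libraries, and that of summed levels per kilobase 2.32 and 2.26 against 2.29 and 2.35. The groups overlapped on both scales, although the second Erastin library lay above both controls on the per-kilobase scale. When genes were placed by the solved structure (MRPS30 and MRPS18A in the large subunit, MRPS36 left out as a component of the alpha-ketoglutarate dehydrogenase complex, and 5 proteins without the name added), the medians were 0.13 and 0.01. The large subunit then had 17 of 51 called higher (33.3%) and 5 lower (9.80%), with 36 fold changes above 0 and 15 below. The small subunit had 7 of 28 called higher (25%) and 2 lower (7.14%), with 14 fold changes above 0 and 14 below. Placed by structure, the subunits were thus less alike than by name.

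Split by the origin of the protein, the members gave less even counts. Of the 45 tested members with a bacterial counterpart, 10 were called higher and 7 lower, with a median log2 fold change of 0.12. Of the 29 listed as mitochondria-specific, without an assigned counterpart in the bacterial ribosome, 14 were called higher (48.3%) and 0 lower. Their median was 0.28. The 5 mitoribosomal proteins without an MRPL or MRPS name are also listed as mitochondria-specific but are not in these counts. None of them was called, and their median was -0.02, so the class looks less uniform with them. The listing is by assigned counterpart, and does not say that bacteria or their ribosomes lack a related protein. MRPS18C, for example, is listed with a bacterial counterpart. MRPS18A (called higher) and MRPS18B (not tested), which share its name, are listed as mitochondria-specific. By the same test, 23.2% of all genes were higher and 23.7% lower. All 7 members called lower therefore have a bacterial counterpart, as do both members with a log2 fold change over 1. The summed level of the mitochondria-specific members was 1109 and 1088 CPM in control and 1369 and 1337 CPM in Erastin libraries, 23.1% higher in the mean. That of the members with a bacterial counterpart was 1712 and 1691 against 1735 and 1727 CPM, 1.73% higher. Among members in the large subunit, 7 of 30 bacterial counterparts were higher and 5 lower, against 10 and 0 of 20 mitochondria-specific proteins. In the small subunit the counts were 3 and 2 of 15 against 4 and 0 of 9. Those 9 leave out DAP3, PTCD3, CHCHD1 and AURKAIP1, with log2 fold changes of -0.09, -0.02, -0.08 and -0.01 and none called. The small subunit counts therefore hold for the members by name only. Proteins are not replicates, so the difference between the classes was not tested.

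**Figure D3:**
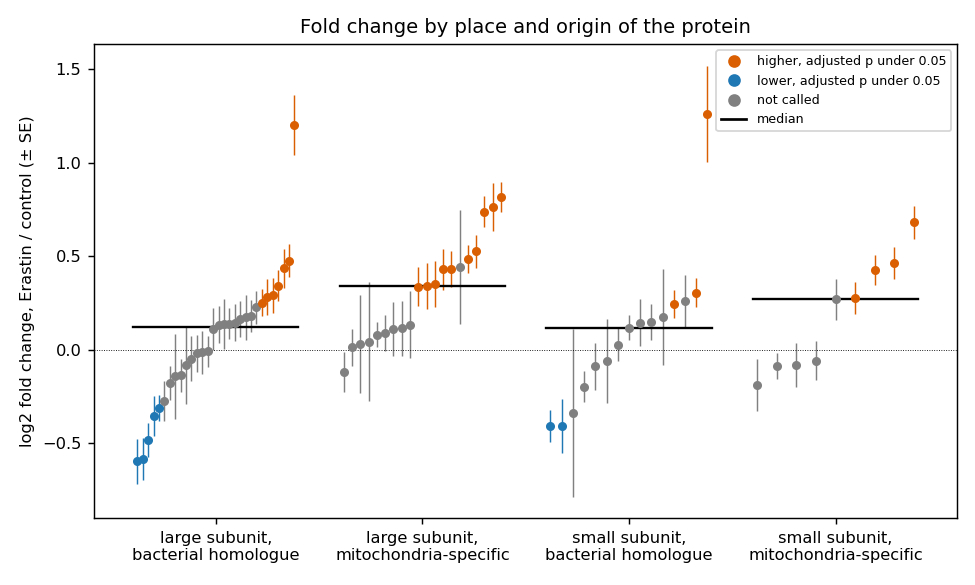
Log2 fold change of each tested member, Erastin over control, with its SE (74 members, MRPS36 left out). The 5 mitoribosomal proteins without an MRPL or MRPS name are not shown. Members are split by subunit in the solved structure and by whether a counterpart in the bacterial ribosome was listed. Orange points were called higher, blue points lower and grey points neither, and the black line is the median of the class. Blue points appear in the classes with a bacterial counterpart and in neither mitochondria-specific class.

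Proteins were also listed by functional site of the ribosome. Called were 1 of 5 tested stalk proteins, 0 of 4 at the exit tunnel and 2 of 5 listed under the decoding region. All of them were higher, where 23.2% of all tested genes were higher and 23.7% lower. The stalk that recruits translation factors is built from MRPL10, MRPL11, MRPL12, MRPL53 and MRPL54. MRPL54 alone of these was called, as given above. MRPL10 had 47.0 and 50.6 CPM in control and 53.4 and 60.8 CPM in Erastin libraries, a log2 fold change of 0.23 (SE 0.09) that missed the threshold (adjusted p 0.0591) and passed it under 5 of the alternatives. MRPL11 had a log2 fold change of 0.18 (SE 0.08), MRPL53 of 0.44 (SE 0.30) and MRPL12, the L7/L12 protein itself, of -0.08 (SE 0.21). MRPL12 was read from 170 to 219 counts, with 68.2% of its exon bases under a readthrough gene, and a change of this size was not detectable.

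At the exit tunnel for the new chain, MRPL22 had a log2 fold change of -0.01 (SE 0.12), MRPL24 of -0.18 (SE 0.09), MRPL47 of 0.13 (SE 0.10) and MRPL23 of -0.14 (SE 0.23), and none of these 4 was called. The Erastin libraries gave opposite values for MRPL23, with 852 counts in the first and 458 in the second against 707 and 756 in the controls. Without the first Erastin library its log2 fold change was -0.70 (adjusted p 0.00364), and without the second 0.26 (adjusted p 0.18). Of its exon words of 31 bases, 96.3% also occur on unplaced or unlocalized scaffolds of the assembly, which leaves 3.66% that occur once and under no other gene.

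The proteins listed under the decoding region of the small subunit are not limited to the decoding centre itself. Among them, MRPS7 was called higher at 53.0 and 52.4 CPM against 65.9 and 64.5 CPM (log2 fold change 0.31, adjusted p 0.0061). MRPS15 was called higher at 69.3 and 71.1 against 79.7 and 86.4 CPM (log2 fold change 0.24, adjusted p 0.0192). The call of MRPS7 was lost without the first Erastin library (adjusted p 0.0531) and that of MRPS15 without the second (0.194). MRPS5, MRPS9 and MRPS11 were not called, with log2 fold changes of -0.20 (SE 0.08), 0.15 (SE 0.13) and -0.09 (SE 0.13). MRPS12, which faces the decoding centre, had no counts and is described below.

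The 5 mitoribosomal proteins named otherwise showed little change, and none was called. DAP3, the GTP-binding protein of the small subunit first found in cell death screens, was at 116 and 119.7 CPM in control and 112 and 108 CPM in Erastin libraries (log2 fold change -0.09, SE 0.07). PTCD3 was at -0.02 (SE 0.07) on the log2 scale, CHCHD1 at -0.08 (SE 0.10), AURKAIP1 at -0.01 (SE 0.12) and GADD45GIP1 at 0.11 (SE 0.08). Leaving out the first control library gave AURKAIP1 a log2 fold change of 0.22 (adjusted p 0.0295), and leaving out the second -0.22 (adjusted p 0.0235), with the control libraries at 104 and 77.1 CPM.

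The mRNAs of this complex did not stand at equal levels per length. The length is that of all annotated exons of a gene, with bases under other genes kept in, so these levels also depend on the annotation. For example, MRPL42 (16393 bases) and MRPL41 (1262 bases) had control means of 40.7 and 41.9 CPM, but 2.48 and 33.2 CPM per kb. Per kilobase of exon, control levels of the 75 tested members ran from 0.534 to 69.3 CPM per kb with a median of 12.2. In the large subunit MRPL37 was highest (69.3 ± 2.13 CPM per kb, SD, n = 2), followed by MRPL3 (49.8 ± 0.650) and MRPL18 (47.6 ± 0.766). MRPL3 and MRPL18 lay near each other and MRPL37 stood apart. In the small subunit MRPS34 (44.4 ± 5.89) and MRPS16 (40.3 ± 1.80) were highest and overlapped in their spread, followed by MRPS35 (35.5 ± 2.11). In Erastin-treated cells MRPS35, which rose, stood at 47.7 ± 3.77 CPM per kb, beside 42.6 ± 2.85 for MRPS34. MRPL37 and MRPS16 were not called, with log2 fold changes of 0.08 (SE 0.07) and 0.12 (SE 0.07), nor was MRPS34 at -0.06 (SE 0.10). MRPL18 was called higher by 0.25 on the log2 scale (adjusted p 0.0132), a call that was lost without either Erastin library (adjusted p 0.0975 and 0.0574). Across the 75 members the order of levels was much the same with and without Erastin (Spearman's rho 0.954, over genes of the same libraries and lengths), and the control level showed no relation to the log2 fold change (rho -0.07).

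The lowest levels belonged in part to genes that the reads could hardly be assigned to. A word of 31 exon bases was called countable where it occurs once in the genome assembly, with its 261 alternate scaffolds and its unplaced sequence, and lies under no other gene. In 9 of the 78 members under 50% of the words were countable, and the median control level of these 9 was 6.15 CPM per kb against 12.3 for the other 69. MRPS18B, on the stretch of chromosome 6 that holds the MHC, had no countable word and 0 to 5 counts a library. MRPL45, which anchors the particle to the inner membrane, had 1.64% countable words and 1 to 15 counts. Both were removed by the filter. The share is not a full guide to the counts, since MRPS36 had 0.922% countable words and 293 to 456 counts, and MRPL23 3.66% and 458 to 852. Among tested genes MRPS17 (0.534 CPM per kb, 48.8% countable), MRPL38 (0.620 CPM per kb, 51.6% countable) and MRPL46 (0.976 CPM per kb, 88.7% countable) were among the lowest, and their log2 fold changes of -0.34 (SE 0.45), 0.04 (SE 0.32) and 0.03 (SE 0.26) were within their error. Counted over the 69 members with at least 50% of countable words, 23 were called higher and 7 lower. These are 33.8% and 10.3% of those tested, beside 23.2% and 23.7% of all tested genes.

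**Figure D4:**
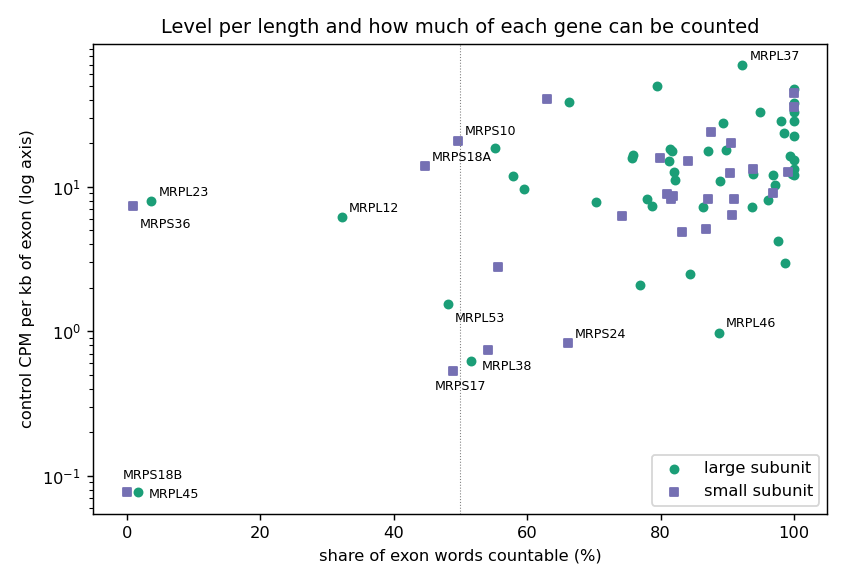
Control level per kilobase of exon (log axis) against the share of exon words of 31 bases that were countable (%), for 77 members, with MRPS12, listed at 0, left out. The dotted line stands at 50%. MRPS18B and MRPL45 lie at the lower left, at 0.0773 and 0.0766 CPM per kb.

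MRPS12 was listed at 0 in all 4 libraries, although 79.6% of its words were countable. It lies on chromosome 19 in a run of 20 neighbouring protein-coding genes, from position 38409051 to 38975910, each of which had at most 9 counts in any library. In this run 11 genes beside MRPS12 were listed at 0 throughout, among them HNRNPL, a nuclear RNA-binding protein that cells express widely, SARS2, the mitochondrial seryl-tRNA synthetase that shares its start region with MRPS12, and ECH1. ACTN4, the actinin of the cell cortex, had 0 to 2 counts. The genes on either side of the run, FAM98C and FBXO27, had 440 to 512 and 512 to 941 counts. The zero of MRPS12 thus goes with its whole neighbourhood, and no level or fold is given for it.

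The other parts of the mitochondrial translation system were read from lists of their genes. Of 27 assembly factors, 11 (40.7%) were called higher and 5 (18.5%) lower, beside 23.2% and 23.7% of all tested genes, with a median log2 fold change of 0.21. YBEY, an RNase of rRNA processing, rose from 11.4 and 9.91 to 18.7 and 20.9 CPM (log2 fold change 0.89), and RCC1L, a factor of large subunit assembly, from 64.0 and 58.7 to 118 and 109 CPM (0.89). TFB1M, which methylates the small rRNA, fell from 24.005 and 26.7 to 13.1 and 13.7 CPM (-0.92). MRM1, a methyltransferase of the large rRNA, was called at a log2 fold change of -3.22, but its control libraries stood at 0.425 and 4.47 CPM. Of 17 translation factors, 7 (41.2%) were called higher and 3 (17.6%) lower, with a median of 0.17. GFM2, which recycles ribosomes, and MTFMT, which formylates the initiator tRNA, rose by 0.53 and 0.50 on the log2 scale, while SLIRP, an mRNA-stabilising protein, changed by -0.55 and MRRF, the recycling factor, by -0.51.

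The RNA made in the mitochondria changed far more than the mRNAs of the ribosomal proteins. The large rRNA MT-RNR2 stood at 6712 and 5782 CPM in control and 2872 and 3217 CPM in Erastin libraries (log2 fold change -1.04, adjusted p 1.08e-06). The small rRNA MT-RNR1 stood at 706 and 629 against 289 and 317 CPM (-1.14, adjusted p 2.68e-07). Both rRNAs fell, so that the ratio of summed rRNA to summed member CPM was 2.62 and 2.30 in control and 1.02 and 1.15 in Erastin libraries. How rRNA was removed or kept in these libraries was not given in the sources used here. All 13 mitochondrial mRNAs were called lower, with a median log2 fold change of -1.08. MT-CO3 and MT-CO1, subunits of cytochrome c oxidase, fell by 1.83 and 1.66 on the log2 scale, and MT-ND6, the mRNA of the light strand, by 0.34. Nuclear genes of the respiratory chain showed no such shift, with 12 of 72 called higher, 12 lower and a median of 0.03. Either count is 16.7% of the 72, beside 23.2% and 23.7% of all tested genes. SDHC and NDUFC2 rose by 0.56 and 0.95, ATP5F1D fell by 0.74, and UQCRC2 was called at -1.49 with control libraries at 2.16 and 9.63 CPM.

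Cytosolic ribosomal proteins leaned the other way from the mitoribosomal ones. Of 77 tested, 7 (9.09%) were called higher and 37 (48.1%) lower, beside 23.2% and 23.7% of all tested genes. Their median log2 fold change was -0.20. Of the 75 mitoribosomal members, 24 were higher and 7 lower with a median of 0.13. RPL10A fell from 254 and 236 to 116 and 119.9 CPM (-1.05) and RPS7 from 282 and 303 to 148 and 145 CPM (-0.9996). RPL7A was called at a log2 fold change of 1.60, but it had 25 and 23 counts in the control and 24 and 123 in the Erastin libraries. Genes of this family have many near-identical copies, so their counts are uncertain. Summed over the family, the level was 29988 and 28477 CPM in control and 25812 and 25839 CPM in Erastin libraries. The difference between both families was not tested.

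**Figure D5:**
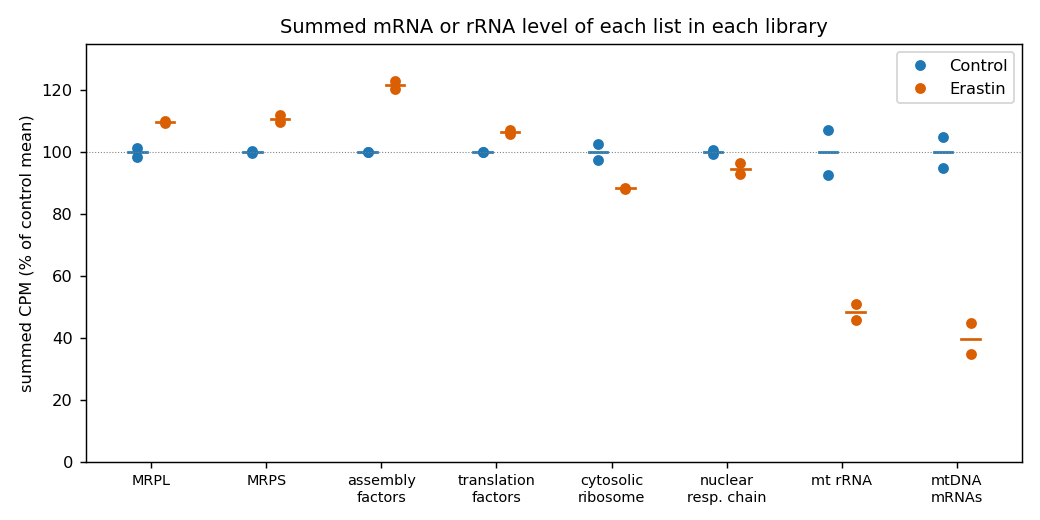
Summed CPM of 8 lists in each library, as a percentage of the mean of the control libraries, with a short line at the mean of each group of 2. MRPL and MRPS genes stand 9.68% and 10.9% above control in the mean, cytosolic ribosomal proteins below control, and mitochondrial rRNA and mRNAs at 48.4% and 39.8% of it in the mean.

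Library totals lay between 29412656 and 31513519 counts, and 23519 to 23990 genes had a count. The libraries held the mesenchymal markers of U87MG, with VIM at 1609 to 2547 CPM and CD44 at 1055 to 1406 CPM. Both fell, as did FN1 (-3.39) and NES (-3.62), so 4 of 6 tested markers of the line were lower. GFAP and OLIG2, which mark glia, were under 3 CPM in every library, and S100B was listed at 0 in 3 of 4. Markers of other cells were low, with PTPRC at 0 or 1 count, EPCAM at 3 to 14 counts and PECAM1 at 4.51 and 6.05 CPM in control and 1.04 and 1.05 CPM in Erastin libraries. The 4 proliferation genes tested (MKI67, TOP2A, PLK1 and CDC20) summed to 868 and 811 CPM in control and 58.8 and 62.1 CPM in Erastin libraries. The part of this change in the levels of the mitoribosomal mRNAs was not tested.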

How the data were processed

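Per the file header, the authors' table was written by featureCounts 2.0.3 with the Ensembl release 90 annotation of GRCh38. The authors deposited raw counts of reads per gene, without strand, without normalization and without reads that match several genes or places. The mates of a pair were counted as separate reads. The processing notes name HISAT2 2.1.0 and featureCounts 2.0.4, and the methods htseq-count. Estimated counts can hold decimals, and of the deposited values 0 were not whole. The authors' table also gives the exon length of each gene, used for levels per kilobase. Counts were fitted with edgeR 4.0.16 in R 4.3.3 (filterByExpr with a minimum count of 10, TMM, quasi-likelihood test of treatment alone, two-sided, Benjamini-Hochberg over 16751 genes). The biological coefficient of variation was 10.3%. Each SE is the log2 fold change divided by the root of its F statistic. Replicate pairs differed by more than counting noise (chi-square per degree of freedom 11.1 in control and 9.10 in Erastin pairs). The smallest two-sided p of an exact permutation test between 2 and 2 libraries is 0.333. The script was tested on simulated data.

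Named members were those with an adjusted p under 0.05 and a log2 change of 1 or more either way, the 8 largest rises and falls called (only 7 fell), the stalk, tunnel and decoding proteins, the 5 proteins named otherwise, the 3 highest and lowest per length in each subunit and those filtered out. MRPL44, MRPL58, MRPL9 and the neighbours of MRPS12 were named after their values were seen. From other lists the 2 largest called changes each way were named (1 is not reported here), and MT-ND6 was added after its value was seen. The members and lists were chosen with earlier results of these data known. Countable words were computed on the hg38 genome with all its scaffolds, from the exons in the authors' table. Alternatives were RLE size factors, library totals, DESeq2 1.42.0, no filter, 10 counts in every library, protein-coding genes, a replicate block, thinning to the smallest library, pairs of reads, each library left out, subunits by structure and, chosen after seeing the data, members with at least 50% countable words.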

Additional observations from a re-analysis of the deposited data

How the results depend on the processing

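Results followed were the numbers of members called higher, lower and past a log2 fold change of 1, both subunit medians and the summed level. Medians and sums were held against the spread between libraries, the mean SD within groups on the log2 scale. The small subunit median was 5.31 and 5.12 log2 CPM in the control libraries, so this allowance is wide beside a median log2 fold change of 0.15. Of 80 alternative values, 77 stayed within 1.5 times the count or within the spread between libraries. The other 3 were the summed log2 ratio with library totals (0.19 against 0.14), the members called lower without the second Erastin library (4 against 7) and the small subunit median by structure (0.0103 against 0.15), where the change comes from the 7 genes moved, left out or added; for the others the cause was not tested. With 1 library left out, 18 to 25 members were called higher, 4 to 7 lower and 2 past a log2 fold change of 1, the medians were 0.11 to 0.17 (large) and 0.11 to 0.16 (small), and the summed log2 ratio was 0.13 to 0.15. A group left with 1 library was assumed to vary like the other. With the replicate block, 26 members were called higher and 7 lower, and all 24 and 7 calls of the fit without it were among them. Same-numbered libraries did not deviate together (correlation 0.0203), so the numbers were not taken as pairs. DESeq2 called 20 higher and 6 lower, all among the main calls.

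Fold changes that changed sign belonged to named members that were not called, and their log2 values were as follows. With library totals, AURKAIP1 was at 0.0452, MRPL22 at 0.038 and PTCD3 at 0.0295, and with the replicate block AURKAIP1 was at 0.0048. Values with 1 library left out changed sign for AURKAIP1 (-0.22 to 0.22), MRPL12 (-0.27 to 0.12), MRPL22 (-0.10 to 0.0717), MRPL23 (-0.70 to 0.26), MRPL38 (-0.25 to 0.29), MRPL46 (-0.33 to 0.50), MRPS11 (-0.26 to 0.0646), MRPS34 (-0.20 to 0.0816) and PTCD3 (-0.0566 to 0.00893). Of 533 values for named members, 18 changed sign, 13 lost a call and 11 gained one, of which 1 (AURKAIP1 without the first control library) also changed sign. With 2 libraries a group and a median SE of 0.10, changes in members under 100 counts, such as MRPS17, MRPL38 and MRPL53, were beyond the depth of these libraries unless large.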
